A study of Mus musculus with 4 samples.

Results

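The genes described here are 32 genes of cholesterol synthesis and transport, chosen by name from their known roles, with earlier results of these data known. All 32 were among the 40092 genes of the count table, and all 32 were among the 16661 genes with enough counts to be tested. They were measured by RNA-seq in alveolar type II (AT2) cells, the surfactant-making epithelial cells and resident stem cells of the lung alveolus, sorted from mouse lungs on day 14 after bleomycin, a drug that injures the alveoli and leads to fibrosis. The 2 control libraries (Ctrl) came from mice of the genotype Alkbh5 flox/+; Sftpc-CreERT2; Rosa26-mTmG and the 2 knockout libraries (A5-CKO) from mice of the genotype Alkbh5 flox/flox; Sftpc-CreERT2; Rosa26-mTmG, and all mice received tamoxifen and bleomycin. Sftpc-CreERT2 is a recombinase that tamoxifen switches on in cells that use the Sftpc promoter, so the Ctrl cells also lose 1 floxed Alkbh5 allele and the comparison is between cells with 1 allele and cells with none. Rosa26-mTmG makes recombined cells green, and the green cells were the ones sorted. The ages of the mice, and whether a library holds 1 mouse or a pool, are not given in the sources used here, so the p-values below measure only the spread between these libraries.

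Animal cells build cholesterol from acetyl-CoA. The mevalonate pathway first makes isoprenoid units, squalene synthase joins them, and a series of sterol enzymes turns squalene by way of lanosterol into cholesterol. The supply is sensed in the endoplasmic reticulum: when sterol is low, SCAP escorts the transcription factor SREBP-2, the product of Srebf2, to the Golgi for cleavage, and the released fragment switches on the synthesis genes, while INSIG proteins hold the complex back when sterol is high. The liver X receptors (LXR) answer to oxysterols and switch on export and lipid genes. In AT2 cells cholesterol is also a component of surfactant, the lipid film that keeps alveoli open.

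Each library held between 18144865 and 20811757 counts, and values are given as normalized counts (CPM), which divide each count by the size of its library, scaled with edgeR's TMM factors, which ranged from 0.860 to 1.13. Alkbh5, the targeted RNA demethylase, had 81.7 and 152 CPM in Ctrl 1 and Ctrl 2 and 19.3 and 36.6 CPM in the A5-CKO libraries. This is a difference of -2.06 on the log2 scale (standard error 0.46), with an adjusted p of 0.528 in edgeR (quasi-likelihood, Benjamini-Hochberg) and 0.0224 in DESeq2 with default filtering, and a range of 0.00112 to 0.878 over all alternatives. The AT2 markers, 10 genes such as Sftpc and Napsa, were at 0 in none of the libraries and summed to 54574 and 78185 CPM in the Ctrl libraries and to 40685 and 33338 CPM in the A5-CKO libraries. The libraries also held RNA of other cells: 12 macrophage markers summed to 3046 CPM in Ctrl 1 and 2453 CPM in A5-CKO 2, against 493 CPM in Ctrl 2 and 284 CPM in A5-CKO 1. In sorted bulk samples, fewer cells of a type and less RNA per cell cannot be told apart.

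Most cholesterol genes were lower in A5-CKO. Of the 32 genes, 29 had a lower and 3 a higher mean level in A5-CKO, and the median log2 fold change (A5-CKO over Ctrl) was -0.54, against -0.02 over all 16661 genes tested. The genotypes did not overlap for 24 genes: the A5-CKO libraries were both below the Ctrl libraries for 23 of the 32 genes, where 23.5% of all genes lay that way, and above them for 1 gene, Ggps1, where 20.3% of all genes did. The other 8 genes overlapped between the genotypes. With 2 libraries in each group, none of the adjusted p-values of the 32 genes was under 0.05 in edgeR (0 genes), as was the case for 0% of all genes. An unadjusted p under 0.05 was found for 12 of the 32 genes in the lower direction, against 4.71% of all genes, and for 0 in the higher direction, against 4.48%. In DESeq2 on the same 16661 genes, 1776 of all genes and 11 of the 32 had an unadjusted p under 0.05, in either direction. With default filtering, 0.385% of 15306 genes had an adjusted p under 0.05 and 0 of these were among the 32. A p was given to 27072 genes, which include genes with too few counts for edgeR, and 2.93% were lower at an unadjusted p under 0.05. The same held for 11 of the 32 genes. The smallest adjusted p among them in DESeq2 was 0.147, for Fdps, whose adjusted p over all alternatives ranged from 0.0303, in a fit with crossed replicate numbers that was chosen after seeing the data, to 0.878.

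**Figure D1:**
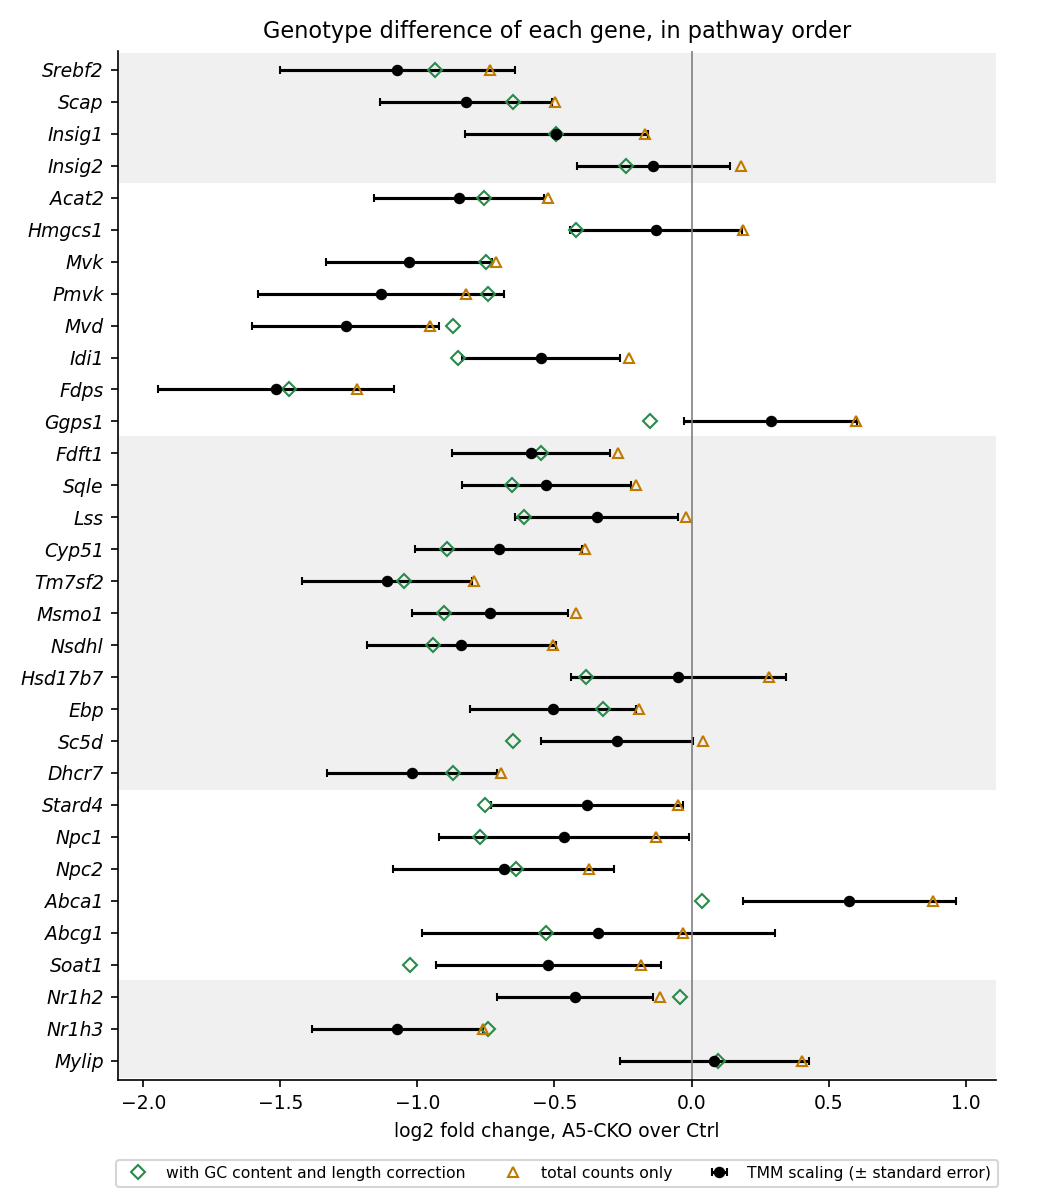
Log2 fold change (A5-CKO over Ctrl, x axis) of each of the 32 genes (y axis, grouped by role), as black points with bars of 1 standard error from edgeR, beside the value with total counts only (triangles) and with the GC content and length correction (diamonds). Of the 32 black points, 29 lie to the left of 0, from -1.52 for Fdps to 0.58 for Abca1.

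The Ctrl libraries were the highest for most of the genes. Ctrl 2 was the highest library for 16 genes and Ctrl 1 for 11, while A5-CKO 1 was the lowest for 21 genes and A5-CKO 2 for 9. The median deviation from each gene's own mean, on the log2 scale, was 0.22 and 0.32 in the Ctrl libraries and -0.35 and -0.27 in the A5-CKO libraries, so the libraries of a genotype lay closer to each other than to either library of the other genotype. The difference between the genotypes was larger than the difference within Ctrl and within A5-CKO for 21 of the 32 genes (65.6%), and for 5087 of the 16661 genes tested (30.5%). The 19 enzymes of synthesis together summed to 2630 and 2309 CPM in the Ctrl libraries and to 1398 and 1506 CPM in the A5-CKO libraries. Of these 19 enzymes, 18 were lower in A5-CKO, 16 without overlap (23.5% of all genes lay that way), and their median log2 fold change was -0.70. The 13 genes of sensing, transport and LXR had a median of -0.47, with 7 lower without overlap.

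**Figure D2:**
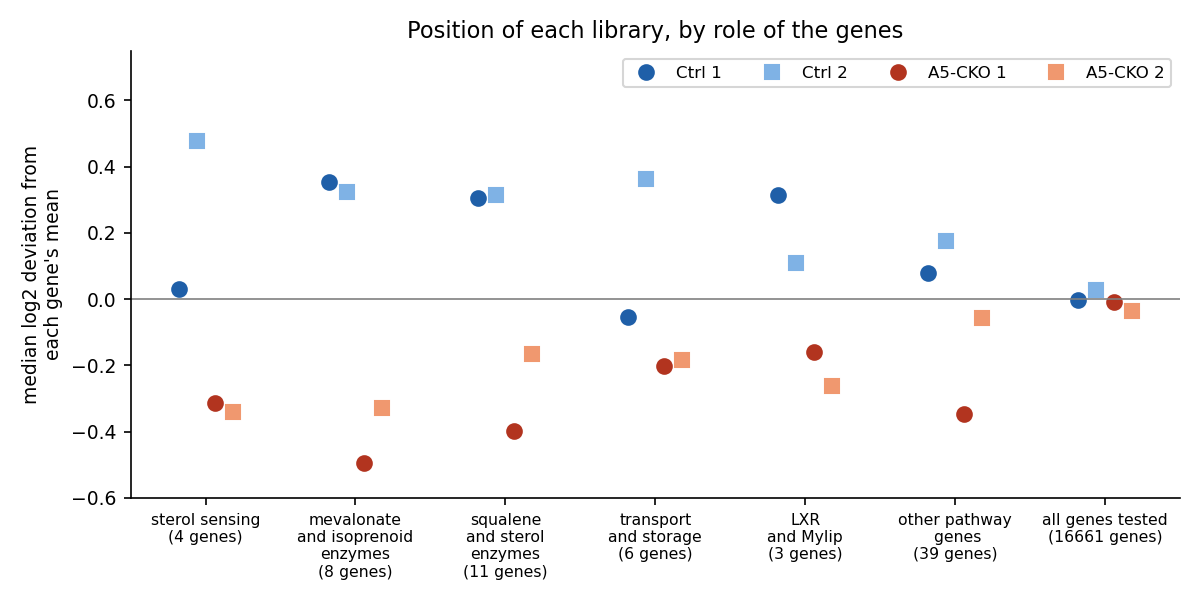
Median log2 deviation of each library from each gene's mean over the 4 libraries (y axis), for the 5 role groups, for 39 other genes of the pathway and for all 16661 genes tested (x axis). The 2 enzyme groups, sterol sensing, LXR and Mylip, and the other pathway genes place both Ctrl libraries above 0 and both A5-CKO libraries below 0. For transport and storage, Ctrl 1 lies at -0.06. Over all genes the 4 libraries lie within 0.04 of 0.

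Stretches around the starts of 4 genes are printed below to show the region through which sterol genes are known to be switched together, searched for 2 motifs: the sterol regulatory element bound by SREBP, searched as TCACNCCAC, and the CCAAT box bound by NF-Y, which SREBP commonly works beside. They come from RefSeq on GRCm38.p6 (the build of mm10.p6), cover 250 bases before to 50 bases after the annotated start, and read 5′ to 3′ on the strand of the gene, with matches to either motif on either strand in capitals (a CCAAT on the other strand reads ATTGG). Hmgcs1 and Srebf2 stand at the entry and the control of the pathway, and Mvd and Tm7sf2 are enzymes with some of the largest log2 fold changes of their groups.
Hmgcs1, chr13:119690101-119690400 (plus strand): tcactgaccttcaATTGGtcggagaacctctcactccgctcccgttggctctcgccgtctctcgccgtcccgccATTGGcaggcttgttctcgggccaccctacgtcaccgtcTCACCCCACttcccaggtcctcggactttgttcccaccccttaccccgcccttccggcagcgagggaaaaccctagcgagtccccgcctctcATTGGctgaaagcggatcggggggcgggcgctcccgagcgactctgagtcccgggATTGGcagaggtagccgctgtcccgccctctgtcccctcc
Srebf2, chr15:82147019-82147318 (plus strand): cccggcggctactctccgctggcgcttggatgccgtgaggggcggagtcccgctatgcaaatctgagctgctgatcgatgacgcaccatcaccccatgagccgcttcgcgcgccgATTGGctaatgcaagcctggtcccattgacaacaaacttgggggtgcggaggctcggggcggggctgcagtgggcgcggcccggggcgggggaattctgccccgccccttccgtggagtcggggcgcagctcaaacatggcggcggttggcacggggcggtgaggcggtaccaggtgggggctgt
Mvd, chr8:122443373-122443672 (minus strand): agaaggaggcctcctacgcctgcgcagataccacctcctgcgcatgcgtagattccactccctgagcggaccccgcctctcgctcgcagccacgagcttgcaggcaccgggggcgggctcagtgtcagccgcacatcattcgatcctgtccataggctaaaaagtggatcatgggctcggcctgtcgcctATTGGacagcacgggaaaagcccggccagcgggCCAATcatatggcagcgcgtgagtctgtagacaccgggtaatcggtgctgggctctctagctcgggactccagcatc
Tm7sf2, chr19:6067801-6068100 (minus strand): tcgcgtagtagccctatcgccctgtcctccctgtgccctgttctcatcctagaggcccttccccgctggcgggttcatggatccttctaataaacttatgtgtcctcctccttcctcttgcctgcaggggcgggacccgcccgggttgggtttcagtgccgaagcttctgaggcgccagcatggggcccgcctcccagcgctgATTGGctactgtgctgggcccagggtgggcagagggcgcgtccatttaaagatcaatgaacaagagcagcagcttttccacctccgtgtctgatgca

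Such a window was found for 26 of the 32 genes. The sterol regulatory element letters occurred in 1 of the 26 (3.85%), Hmgcs1, at base -137 from the start. By gene, they occurred in 1.44% of 27025 genes and 1.41% of 17492 protein-coding genes. No match says only that these letters are not in the window. CCAAT occurred in 21 of the 26 windows by gene (80.8%), against 41.1% of 27025 genes and 42.3% of 17492 protein-coding genes. The GC box GGGCGG, the letters bound by Sp1 proteins, occurred in 22 of the 26 (84.6%), against 38.2% of all genes and 49.2% of protein-coding genes. Both strands were searched, and none of the 3 motifs contains another. Of the windows shown, that of Hmgcs1 held 4 CCAAT matches, that of Mvd 2, and those of Srebf2 and Tm7sf2 held 1 each.

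The 4 genes of sterol sensing were all lower in A5-CKO without overlap (23.5% of all genes were). Their median log2 fold change of -0.66 was -0.40 without Ctrl 2 and -0.34 with total counts only, where 2 of the 4 were lower without overlap and Insig2 was higher without overlap; with the GC content and length correction Insig2 overlapped. Srebf2, the gene of SREBP-2 (chromosome 15, 82147269 to 82205379, GRCm38.p6), had 317 and 675 CPM in Ctrl 1 and Ctrl 2 and 235 and 236 CPM in A5-CKO 1 and A5-CKO 2. The A5-CKO libraries were nearly equal and the Ctrl libraries 2.13-fold apart, so the size of the difference depended on Ctrl 2: its log2 fold change of -1.07 (standard error 0.43; in edgeR its adjusted p = 0.528, as for each of the 12 genes with an unadjusted p under 0.05) changed to -1.46 when Ctrl 1 was left out and to -0.47 when Ctrl 2 was. Scap, the escort of SREBP (chromosome 9, 110333288 to 110384949), had 190 and 218 CPM in Ctrl and 98.2 and 132 CPM in A5-CKO. For Scap the log2 fold change was -0.82 (standard error 0.31). The retention factors differed less. Insig1, itself a sterol-responsive gene, had 210 and 272 CPM in Ctrl and 198 and 144 CPM in A5-CKO, with a log2 fold change of -0.49 (standard error 0.33). Insig2 had 58.6 and 64.3 CPM in Ctrl and 53.2 and 58.3 CPM in A5-CKO, with the highest A5-CKO library just under the lowest Ctrl library, and its log2 fold change of -0.14 (standard error 0.28) lay within its error.

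The mevalonate and isoprenoid enzymes held the largest differences, with a median log2 fold change of -0.94 over 8 genes. Of these, 7 were lower and 5 had an unadjusted p under 0.05, against 4.71% of all genes in the lower direction. Fdps, which makes farnesyl diphosphate (chromosome 3, 89093588 to 89101967), had 653 and 307 CPM in Ctrl and 170 and 165 CPM in A5-CKO. Its means differed 2.86-fold, and its log2 fold change of -1.52 (standard error 0.43) was -0.81 without Ctrl 1, the higher of the Ctrl libraries. Mvd, the mevalonate diphosphate decarboxylase, had 116 and 76.1 CPM in Ctrl and 34.3 and 45.8 CPM in A5-CKO. It had the smallest unadjusted p of the 32 genes in edgeR, at a log2 fold change of -1.26 (standard error 0.34). Mvk, mevalonate kinase (chromosome 5, 114444264 to 114460591), had 55.9 and 58.2 CPM in Ctrl and 25.3 and 30.5 CPM in A5-CKO, for a log2 fold change of -1.03 (standard error 0.30).

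Pmvk, the next kinase of the pathway, had 266 and 180 CPM in Ctrl and 63.2 and 140 CPM in A5-CKO, so its A5-CKO libraries differed 2.22-fold. Its log2 fold change of -1.13 (standard error 0.45) was -1.85 without A5-CKO 2 and -0.68 without A5-CKO 1. Acat2, which joins acetyl-CoA units at the entry of the pathway, had 136 and 188 CPM in Ctrl and 94.5 and 85.0 CPM in A5-CKO (log2 fold change -0.85, standard error 0.31). Its neighbouring paralog Acat3, with which reads could be exchanged, had a log2 fold change of -0.02. Idi1, the isomerase that makes the starter unit of isoprenoid chains, had 52.2 and 56.4 CPM in Ctrl and 37.0 and 37.2 CPM in A5-CKO, and its log2 fold change was -0.55 (standard error 0.29). Not every step was lower by this much. Hmgcs1, HMG-CoA synthase and a textbook target of SREBP, had 194 and 215 CPM in Ctrl and 213 and 161 CPM in A5-CKO, so its genotypes overlapped at a log2 fold change of -0.13 (standard error 0.31). For Hmgcs1 the value was -0.42, lower without overlap, with the GC content and length correction, and 0.19, with overlap, with total counts only. Ggps1, which lengthens farnesyl to geranylgeranyl diphosphate for protein anchoring, was the gene that lay higher without overlap, with 38.4 and 29.9 CPM in Ctrl and 44.3 and 39.2 CPM in A5-CKO. The log2 fold change of Ggps1, 0.29 (standard error 0.32), was smaller than its error, and it was -0.15 after the correction for GC content and length described below.

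**Figure D3:**
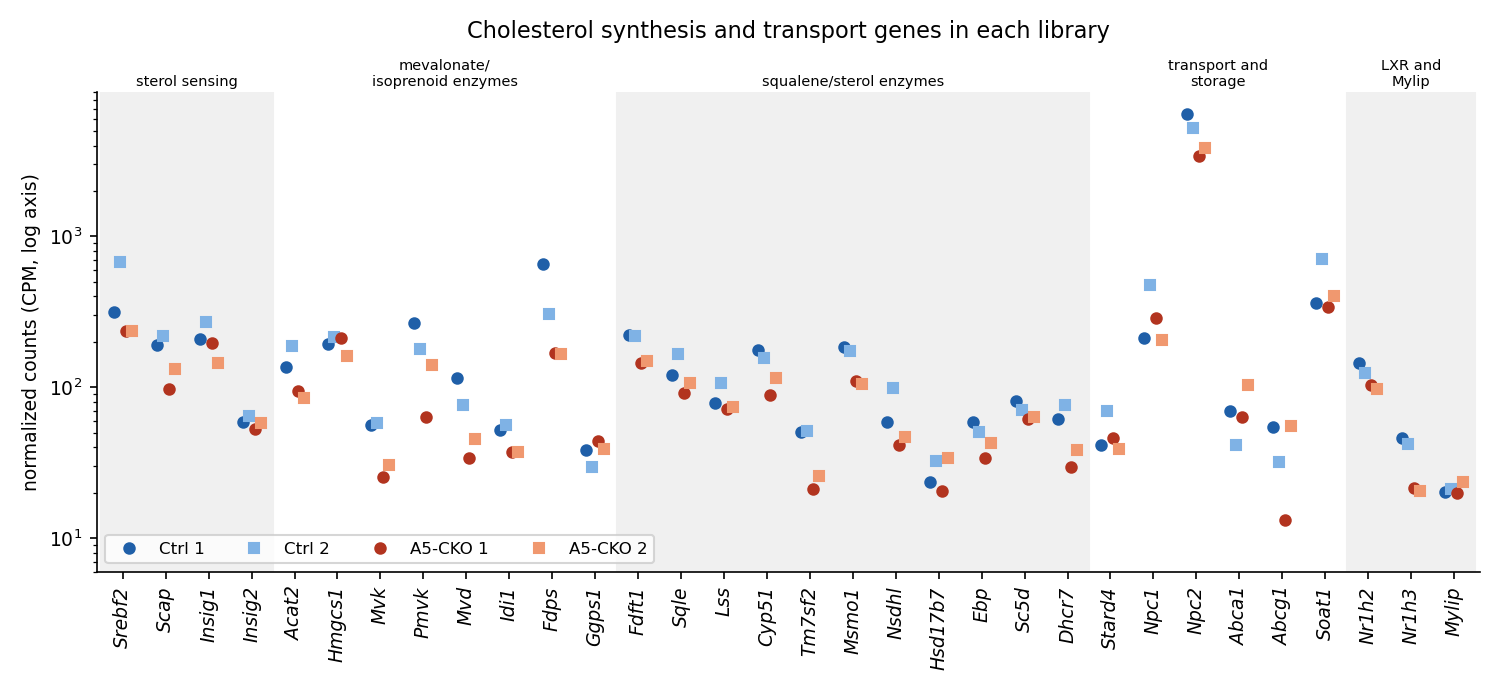
CPM (log axis) of each of the 32 genes in the 4 libraries, Ctrl in dark and light blue and A5-CKO in red and orange, 1 point a library, with genes grouped by role. Both A5-CKO points lie below both Ctrl points for 23 genes.

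All 11 enzymes from squalene to cholesterol had a lower mean in A5-CKO, at a median log2 fold change of -0.59. Of them, 10 were lower without overlap, against 23.5% of all genes, and 4 had an unadjusted p under 0.05, against 4.71%. Tm7sf2, a sterol reductase that acts after lanosterol demethylation (chromosome 19, 6062821 to 6067850), had nearly equal Ctrl libraries at 50.7 and 51.4 CPM against 21.3 and 25.9 CPM in A5-CKO. It had the largest difference of this group, at a log2 fold change of -1.11 (standard error 0.31). Dhcr7, the reductase of the final step of one branch (chromosome 7, 143823167 to 143848410), had 62.1 and 76.3 CPM in Ctrl and 29.7 and 38.6 CPM in A5-CKO, for a log2 fold change of -1.02 (standard error 0.31). Msmo1, the sterol methyl oxidase, had 186 and 173 CPM in Ctrl and 111 and 105 CPM in A5-CKO, with each genotype within 1.08-fold of itself and a log2 fold change of -0.74 (standard error 0.29). Nsdhl, which acts with Msmo1 in removing methyl groups, had 58.6 and 98.9 CPM in Ctrl and 41.5 and 46.5 CPM in A5-CKO. At -0.84 (standard error 0.35), the log2 difference of Nsdhl was -0.45 once Ctrl 2 was left out.

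Cyp51, the lanosterol demethylase, had 177 and 156 CPM in Ctrl and 88.7 and 116 CPM in A5-CKO, at a log2 fold change of -0.70 (standard error 0.30). Fdft1, squalene synthase and so the step committed to sterols, had 222 and 218 CPM in Ctrl and 144 and 149 CPM in A5-CKO (log2 fold change -0.59, standard error 0.29). Sqle, squalene epoxidase and a rate-limiting step, had 121 and 165 CPM in Ctrl and 92.0 and 106 CPM in A5-CKO (log2 fold change -0.53, standard error 0.31). Ebp, the sterol isomerase, had 59.0 and 50.2 CPM in Ctrl and 34.2 and 42.7 CPM in A5-CKO, at a log2 fold change of -0.50 (standard error 0.30). These 4 enzymes were lower without overlap and had unadjusted p over 0.05. The log2 fold changes of the remaining enzymes were -0.34 for Lss, the lanosterol synthase, -0.27 for Sc5d, a sterol desaturase, and -0.05 for Hsd17b7, a ketosteroid reductase whose libraries overlapped, and their standard errors ranged from 0.28 to 0.39.

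The 6 genes of transport and storage were less uniform: 1 was lower without overlap, against 23.5% of all genes, and 5 overlapped. Of these 6 genes, 0 had an unadjusted p under 0.05. Their median log2 fold change of -0.42 was -0.0094 without Ctrl 2, -0.09 with total counts only and -0.70 with the GC content and length correction, where 3 were lower without overlap. Npc2, which hands cholesterol out of the lysosome (chromosome 12, 84754559 to 84773112), had 6446 and 5213 CPM in Ctrl and 3421 and 3831 CPM in A5-CKO. This was the gene lower without overlap, at a log2 fold change of -0.69 (standard error 0.40). Its membrane partner Npc1 had 211 and 475 CPM in Ctrl and 290 and 207 CPM in A5-CKO, and its log2 fold change of -0.47 became 0.19 without Ctrl 2. Soat1, which stores cholesterol as esters, was likewise highest in Ctrl 2, at 704 CPM against 341 to 401 CPM in the other libraries, and its log2 fold change of -0.52 was -0.01 without Ctrl 2. Stard4, a carrier of sterol through the cytosol, had a log2 fold change of -0.38, which was -0.0122 without Ctrl 2. With the GC content and length correction, Soat1 was at -1.03 and Stard4 at -0.75, both lower without overlap, and Npc1 was at -0.77 with overlap.

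The exporters followed another order of the libraries. Abcg1, which exports sterol to lipoprotein particles, had 54.8 and 31.8 CPM in Ctrl and 13.3 and 55.2 CPM in A5-CKO. It was highest in Ctrl 1 and A5-CKO 2, the 2 libraries with the high macrophage marker sums, and its log2 fold change of -0.34 (standard error 0.64) was -1.74 without A5-CKO 2 and 0.34 without A5-CKO 1. Abca1, the other exporter, had 70.1 and 41.5 CPM in Ctrl and 63.3 and 103 CPM in A5-CKO, for a log2 fold change of 0.58 (standard error 0.39), which was 0.04 after the correction for GC content and length. Lipa, the lysosomal lipase that frees cholesterol from esters and no member of the 32, had 86.4 and 19.9 CPM in Ctrl and 18.9 and 84.0 CPM in A5-CKO, the same split of the libraries as the macrophage markers. This split was not particular to macrophages. Taking the libraries as Ctrl 1, Ctrl 2, A5-CKO 1 and A5-CKO 2, fibroblast markers summed to 393, 145, 93.2 and 1014 CPM. Lymphocyte and plasma cell markers summed to 707, 109, 167 and 676 CPM in the same order. Most of this sum was Jchain, at 622, 69.6, 136.5 and 634 CPM. Of the rest of this list, Mzb1 was split this way, while Cd3e, Cd79a, Ms4a1 and Ighm were not. The AT2, AT1, endothelial, and club and ciliated sums were not split this way. The part of RNA from macrophages or these other cells in the values of Abcg1, Abca1 and Lipa was not tested.

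Of the receptors that answer to oxysterols, Nr1h3, the gene of LXR alpha (chromosome 2, 91184061 to 91202829), had 46.1 and 42.4 CPM in Ctrl and 21.4 and 20.6 CPM in A5-CKO. Both pairs were close and the means differed 2.11-fold, at a log2 fold change of -1.07 (standard error 0.31). Nr1h2, the gene of LXR beta, was also lower without overlap, with 144 and 125 CPM in Ctrl and 104 and 96.9 CPM in A5-CKO (log2 fold change -0.43, standard error 0.28), but at -0.04 after the correction for GC content and length. Mylip, an LXR target whose product marks lipoprotein receptors for degradation, lay between 20.0 and 23.7 CPM in every library, a log2 fold change of 0.08 (standard error 0.34).

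Among the 32 genes, the levels per kilobase of the longest protein-coding transcript, as CPM per kb, covered a wide range. Npc2 was the most abundant, at 1767 ± 264 CPM per kb in Ctrl and 1099 ± 87.8 in A5-CKO (SD, n = 2 each). By the mean over the 4 libraries Fdps came next, at 347 ± 177 CPM per kb in Ctrl and 121 ± 2.39 in A5-CKO (SD, n = 2 each), followed by Pmvk, Insig1 and Srebf2. In Ctrl, Srebf2 and Insig1 stood at 97.7 ± 49.97 and 89.3 ± 16.4 CPM per kb (SD, n = 2 each), within their spread. The order of the means differed in A5-CKO, where Srebf2, at 46.4 ± 0.234, was below Msmo1 (52.8 ± 1.87) and Nr1h2 (50.25 ± 2.54). It was also below Hmgcs1 (54 ± 10.6) and Npc1 (47.55 ± 11.2), but within the spread of these genes (SD, n = 2 each). Mylip, Abca1, Abcg1 and Hsd17b7 were the least abundant, at means over the 4 libraries of 6.93, 6.77, 6.65 and 5.98 CPM per kb. The lowest count of any of the 32 genes in any library was 293, and the biological coefficient of variation over all genes was 41.6%.

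A second list of 42 genes of the pathway, chosen by role, gave 39 that could be tested, with 26 lower and 13 higher in A5-CKO and a median log2 fold change of -0.42. This median was -0.22 without Ctrl 2, -0.67 without A5-CKO 2 and -0.09 with total counts only, where 21 were lower and 18 higher. Of the 39, 15 were lower and 5 higher without overlap, against 23.5% and 20.3% of all genes, and 4 were lower and 1 higher at an unadjusted p under 0.05, against 4.71% and 4.48%. In the group of SREBP processing, Srebf1, the gene of SREBP-1, which drives fatty acid synthesis, had 622 and 767 CPM in Ctrl and 291 and 314 CPM in A5-CKO (log2 fold change -1.20, standard error 0.33). Erlin1, a membrane protein that restrains SREBP, had a log2 fold change of -0.95. In trafficking, Tmem97, which limits NPC1, and Stard3, which moves sterol to endosomes, had log2 fold changes of -1.11 and -0.83, both without overlap. Lpcat3, a phospholipid remodelling enzyme under LXR, and Rxra, the partner of LXR, stood at -0.65 and -0.56 with unadjusted p over 0.05. Of the users of isoprenoids, Rce1, which trims prenylated proteins, stood at -0.73. Pggt1b, a subunit of the geranylgeranyl transferase, was the gene that was higher at an unadjusted p under 0.05, with 28.1 and 26.9 CPM in Ctrl and 70.6 and 36.5 CPM in A5-CKO (log2 fold change 0.96, standard error 0.39). For Pggt1b the value was 0.40 without A5-CKO 1 and 0.36, with overlap, after the GC content and length correction. Abcg4, with 2 to 8 counts a library, had too few to be tested, and Rxrb and Rxrg had 0 counts in every library. Whether reads of Rxrb and Rxrg could be counted at all was not tested.

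Other values moved with the lower cholesterol genes. All 10 AT2 markers had a lower mean in A5-CKO, with a median log2 fold change of -0.86. Of them, 6 were lower without overlap, against 23.5% of all genes, and 2 had an unadjusted p under 0.05, against 4.71%. Their summed level was 33338 to 40685 CPM in A5-CKO and 54574 to 78185 CPM in Ctrl. The part of this difference in the cholesterol results was not tested. The club and ciliated cell markers summed to 2122 to 2521 CPM in Ctrl and 1107 to 1716 CPM in A5-CKO. Of the AT1 markers that could be tested, 3 of 4 had a higher mean in A5-CKO, and the median log2 fold change of the 4 was 0.60. Hopx and Clic5 were higher without overlap. Rtkn2 overlapped, with 69.4 CPM in A5-CKO 1 against 11.1 to 19.9 CPM in the other libraries. Aqp5 was lower without overlap, at 981 and 951 CPM in Ctrl and 478.5 and 636 CPM in A5-CKO (log2 fold change -0.79). The AT1 sum, most of it Aqp5, was 1189 to 1324 CPM in Ctrl and 966 to 1065 CPM in A5-CKO. The sums of the other lists overlapped between the genotypes, in Ctrl against A5-CKO: macrophage 493 to 3046 against 284 to 2453 CPM, lymphocyte and plasma cell 109 to 707 against 167 to 676 CPM, fibroblast 145 to 393 against 93.2 to 1014 CPM and endothelial 128 to 202 against 89.7 to 197 CPM. Among the defining markers, Ager and Pdpn of AT1 cells had under 1 CPM in every library and Cldn5 of endothelial cells was at 0.

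**Figure D4:**
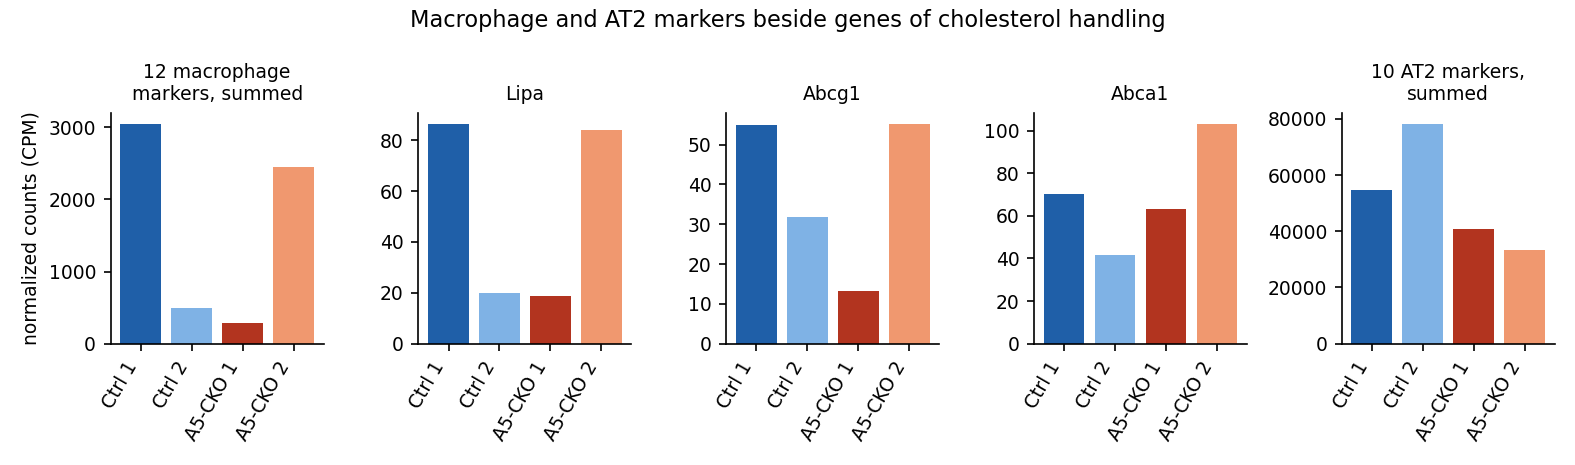
Normalized counts (CPM, y axis from 0, a scale of its own in each panel) in the 4 libraries (x axis, 1 bar a library): the sum of 12 macrophage markers, Lipa, Abcg1, Abca1, and the sum of 10 AT2 markers. The macrophage sum and Lipa are high in Ctrl 1 and A5-CKO 2, Abcg1 is highest in the same 2 libraries, and the AT2 sum is 54574 to 78185 CPM in Ctrl and 33338 to 40685 CPM in A5-CKO.

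The count of lower genes depended on how libraries were scaled, and the TMM factors themselves were lower in Ctrl than in A5-CKO. With total counts only, the median of all genes moved by 0.32 to 0.30 and that of the 32 genes to -0.22, which left the 32 genes at -0.52 relative to all genes, the same distance as with TMM. In that scaling 25 of the 32 genes were lower and 7 higher, 15 were lower without overlap, against 10.1% of all genes, 4 were higher without overlap, against 34.8%, and 4 were lower at an unadjusted p under 0.05, against 1.03%. The medians of the role groups moved with the scaling, from -0.94 to -0.62 for the mevalonate and isoprenoid enzymes, from -0.59 to -0.27 for the squalene and sterol enzymes, and from -0.43 to -0.11 for LXR and Mylip, and that of all 19 synthesis enzymes from -0.70 to -0.39. The 32 genes were like other genes in composition, with a median GC content of 49.15% and a median transcript length of 3191 bases, against 49.82% and 3164 bases over all genes. After a correction for GC content and length, 30 of the 32 were lower, the median log2 fold change was -0.70 against -0.08 over all genes, 25 were lower without overlap, against 25% of all genes, and 17 had an unadjusted p under 0.05 in the lower direction, against 4.93%. The count moved most without A5-CKO 1: without it 0 of the 32 genes had an unadjusted p under 0.05 (746 of all genes, against 1530 with it), without A5-CKO 2 there were 6, and the median log2 fold change was -0.57 and -0.69.

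Some of the counts can hold reads of another gene. Exons of 11 of the 32 genes overlap those of a neighbour in the GENCODE M21 annotation. The study's methods name an NCBI annotation for the counting, in which these overlaps were not examined. Whether the counting used strand is not given in the sources used here. The largest shares were 26.7% of the exon bases of Fdps, shared with the readthrough gene model Gm43738 on the same strand, 18.3% of those of Fdft1, shared with Ctsb on the other strand, and 13.2% of those of Scap.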

How the data were processed

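The data are RNA-seq gene counts of green AT2 cells sorted on day 14 after bleomycin, 2 Ctrl and 2 A5-CKO libraries. Per the submitters' processing notes and the study's methods, the authors trimmed reads with Trim Galore 0.6.10, removed ribosomal RNA reads, aligned with HISAT2 2.2.1 to mm10.p6, removed duplicates with sambamba and counted reads per gene with featureCounts 2.0.3. The methods describe the counting under another assay, which was assumed to hold for the RNA-seq. The deposited values are raw counts per gene, without normalization or pooling. Removing duplicates can lower the counts of abundant transcripts such as surfactant genes. Columns were matched to samples by genotype and replicate number.

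These counts were analysed in R 4.3.3 with edgeR 4.0.16, using TMM factors, filterByExpr, glmQLFit and glmQLFTest on genotype alone, and Benjamini-Hochberg adjustment across the 16661 genes kept. The common dispersion came to 0.173 (biological coefficient of variation 41.6%). Each standard error is the size of the log2 difference over the root of its F statistic. A count of 3, taken as the detection floor, equals 0.128 to 0.177 CPM and covers counting error only. Same-numbered libraries deviated with a correlation of -0.35, and nothing in the labels says that a number pairs mice. The fits were tested on simulated counts with 200 changed genes. The alternatives tried were 3 other scalings (RLE, upper-quartile, total counts only), DESeq2 1.42.0, limma 3.58.1 with voom, other filters, robust dispersions, a block for the replicate number, a GC content and length correction (splines with 4 degrees of freedom per library, longest GENCODE M21 transcript, 15436 genes) and each library left out. The crossed block, and the separation of GC-corrected values, were added after seeing the data.

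The 32 genes, the lists and the tests were chosen with earlier results of these data known. Genes are given with every library's value where the unadjusted p was under 0.05, where DESeq2's adjusted p was, or where the genotypes did not overlap at a log2 fold change of at least 0.5 in size, and, whatever their values, for Srebf2, Scap, Insig1, Insig2, Hmgcs1, Sqle, Nr1h2 and Nr1h3; of each further pathway list, the 2 with the smallest p. The exporters, Npc1, Soat1, Ggps1, Mylip, Lipa and Acat3 were given in more detail after their values were seen. Promoters and coordinates are from RefSeq on GRCm38.p6.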

Additional observations from a re-analysis of the deposited data

How the results depend on the processing

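Each genotype has 2 libraries, and the biological coefficient of variation was 41.6%. The number of the 32 genes with an adjusted p under 0.05 was 0 in edgeR and in each alternative but 1, DESeq2 and limma included. The exception was a fit with the replicate numbers crossed as a block, chosen after seeing the data, in which 2 of the 32 genes and 230 of all genes had an adjusted p under 0.05. The number with an unadjusted p under 0.05, 12 in the reported analysis, was 7 with upper-quartile scaling, 4 with total counts only, 6 with the replicate block and, leaving out 1 library at a time, between 0 (A5-CKO 1) and 11 (Ctrl 1), with 6 without A5-CKO 2. Over all genes, 1530 had an unadjusted p under 0.05, against 754 with the replicate block and 746 without A5-CKO 1, and DESeq2 called 55 of the same genes at an adjusted p under 0.05, or 59 with its default filtering. The median log2 fold change of the 32 genes was -0.44 with upper-quartile scaling, -0.22 with total counts only, -0.70 with the GC content and length correction, and from -0.69 to -0.55 in the fits that leave out 1 library, where the lone library of a genotype is assumed to vary like the pair of the other. The number lower without overlap was 15 with total counts only, and the number higher without overlap was 2 with upper-quartile scaling, 4 with total counts only and 0 with GC-corrected values. Of the 32 genes, 24 kept their direction in all 16 alternatives. The other 8 changed direction at least once, and all of them but Npc1 had a log2 fold change smaller than its standard error. With total counts only, Insig2 was at 0.18, Hmgcs1 at 0.19, Hsd17b7 at 0.28 and Sc5d at 0.0407. Ggps1 was at -0.15 with the GC content and length correction. Hsd17b7 was at 0.0052 with RLE scaling and in DESeq2 on the same genes, and at 0.0594 with upper-quartile scaling. In the fits that leave out 1 library, the log2 fold change lay between -0.36 and 0.0261 for Hmgcs1, -0.49 and 0.26 for Hsd17b7, -0.88 and 0.19 for Npc1, -1.74 and 0.34 for Abcg1, and -0.0764 and 0.19 for Mylip. The causes of these changes were not tested.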
